A study of Mus musculus with 4 samples.

Results

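The genes described here encode the contractile apparatus and the actin cytoskeleton of smooth muscle cells (SMCs), and the question was where binding of PRDM6 was recorded at them. They are 44 genes, named by symbol from a list drawn up by function with earlier results of these data known, and they comprise 5 actins, 11 myosins and proteins that control myosin, 13 proteins of the thin filament, 2 intermediate filament proteins and 13 proteins of adhesions and actin cross-links. A ChIP peak belongs to a gene where the authors' annotation names that gene as having the nearest transcription start site (TSS). By this rule 23 of the 44 genes had at least 1 peak, 21 had none, and the 23 genes held 101 of the 13977 peaks in the list.

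The cells were primary SMCs cultured from the outflow tract of mouse embryos, and they carried a lentivirus that expressed FLAG-tagged PRDM6. There were 4 libraries, 2 of chromatin precipitated with an anti-FLAG antibody (PRDM6 ChIP) and 2 of Input chromatin, and the virus was present in the cells of both groups. The assay recorded the overexpressed, tagged protein, not the endogenous protein, and no library of cells without the virus was analysed here. The Input libraries served the authors to call peaks and left no value of their own to set beside a ChIP value, and a list of peaks cannot show whether the cells expressed the SMC markers among the 44 genes.

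Contraction of smooth muscle comes from the sliding of myosin along actin filaments and is switched on when myosin light chain kinase phosphorylates the regulatory light chain, while a phosphatase reverses the step. Many genes of this machinery carry CArG boxes, the sites at which serum response factor (SRF) and its myocardin-related cofactors bind, and their products define the differentiated SMC. PRDM6 is a PR domain zinc finger protein that is enriched in SMCs.

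Each peak in the list had been matched between both immunoprecipitations, named only by order in the list, hence the terms first-listed and second-listed replicate. The strength of a peak is the −log10 of its p-value in each replicate, and for the matched peak it is the smaller of both values. The agreement of a peak between replicates is given by its global irreproducible discovery rate (IDR), where low values mean good agreement. Many peaks agreed poorly by this measure: 42 of the 101 peaks (41.6%) had the lowest score in the list, with a global IDR of 0.759. The same score was held by 41.4% of all peaks. Peaks are numbered within a gene by their position along the chromosome, coordinates are those of mm10, and peaks of the same gene are not replicates of each other.

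The share of genes with a peak is read against all 21728 protein-coding genes, of which 19.9% had an assigned peak, compared with 23 of the 44 genes (52.3%). Longer genes hold more peaks, and the genes with a peak were longer (median 92.9 kb) than those without (median 10.4 kb). All 11 genes over 100 kb had a peak (among them Myh10, Mylk, Ppp1r12a, Ppp1r12b, Cald1, Synpo2, Vcl, Pdlim5, Pgm5 and Parva), where 55.3% of protein-coding genes of that length had one. Of the 9 genes of 30 to 100 kb, 4 had a peak (among them Myh9, Cnn3 and Actn4), against 28.5% of genes of that length. Of the 11 genes of 10 to 30 kb, 5 had a peak (Acta2, Tpm1, Tpm4, Csrp2 and Zyx), against 13.9%. Of the 13 genes under 10 kb, 3 had a peak (Actb, Cnn2 and Vim), against 7.55%. In each length class the share among the 44 genes was above that of all genes. Weighting the class shares of all genes by these class sizes gives 25.4%, or 11.2 of 44 genes. The shares of the 44 genes pool widely expressed cytoskeletal genes with markers of differentiated SMCs. Of these markers, Acta2, Mylk and Cald1 had a peak, while Actg2, Myh11, Cnn1, Tagln, Smtn, Lmod1 and Des had none.

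The peaks were also dense along the genes. A peak overlapped the body of 21 of the 44 genes, where 14.2% of protein-coding genes had such a peak. The 44 gene bodies span 2.63 Mb and held 78 peaks, or 29.6 peaks per Mb, compared with 6.88 peaks per Mb over the bodies of all protein-coding genes. Without Cald1, Pdlim5 and Parva, the genes with the most peaks, the density was 23.9 peaks per Mb. These 3 genes had 10 or more peaks, as did 0.690% of protein-coding genes. The median number of peaks per gene with a peak was 4 among the 44 genes and 2 among all genes.

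**Figure D1:**
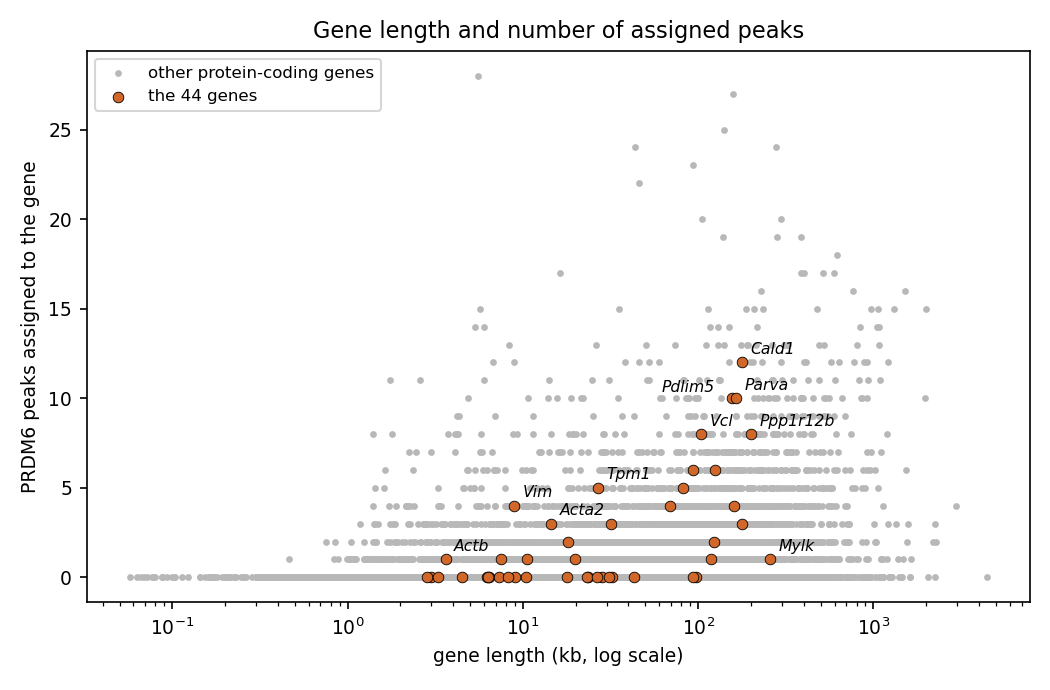
Number of PRDM6 peaks assigned to each protein-coding gene (vertical axis) against the length of the gene in kb on a log scale (horizontal axis), with the 44 genes in orange. The 11 genes over 100 kb all had a peak, between 1 peak for Mylk and 12 peaks for Cald1, while most genes without a peak lie to the left.

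Among the actins, Acta2 and Actb had peaks and Actg2, Acta1 and Actg1 had none. Acta2 encodes smooth muscle α-actin, the most widely used marker of SMCs. Its strongest peak (peak 1, chr19:34254265-34255869) lay across the TSS, with a −log10 p of 7.59 in the first-listed and 7.42 in the second-listed replicate and a global IDR of 0.3802. Although the values were close, the replicates placed the summit 1025 bp apart, the widest gap among the 101 peaks: the first-listed summit lay 16 bp before the gene start and the second-listed summit 1009 bp after it, in intron 1. The other Acta2 peaks were weaker and lay 9887 and 10509 bp upstream. Peak 2 (chr19:34265477-34266001) had values of 10.2 and 5.84, with heights of 18 and 12 fragments. Peak 3 (chr19:34266099-34266410) had values of 5.42 and 4.39, with heights of 12 and 10 fragments. Actb encodes the cytoplasmic β-actin found in nearly every cell, and its peak over the TSS was among the weakest of all, with values of 3.10 and 5.84.

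CArG boxes stood in 14 of the 101 peaks (13.9%, 95% Wilson interval 8.44% to 21.9%), compared with 4.75% of all peaks, and the 17 boxes fell in 9 genes. The sequences around the boxes in the Acta2 peaks are printed from the plus strand of the GRCm38 genome of RefSeq, with the box in capitals and 20 bases on each side.
Acta2 peak 1, intron 1, chr19:34254268-34254317: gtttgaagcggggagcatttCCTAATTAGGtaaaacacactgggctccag
Acta2 peak 2, upstream, chr19:34265814-34265863: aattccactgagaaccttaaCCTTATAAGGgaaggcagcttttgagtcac
The intronic box of Acta2 lay 1297 bp past the gene start, 289 bp from the second-listed summit and 1314 bp from the first-listed summit. It was inside the peak of the second-listed replicate only. The upstream box of Acta2 lay 154 bp from the first-listed and 230 bp from the second-listed summit and was inside the peaks of both. A match of letters is a description of the sequence and was not tested as a site of SRF or PRDM6.

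**Figure D2:**
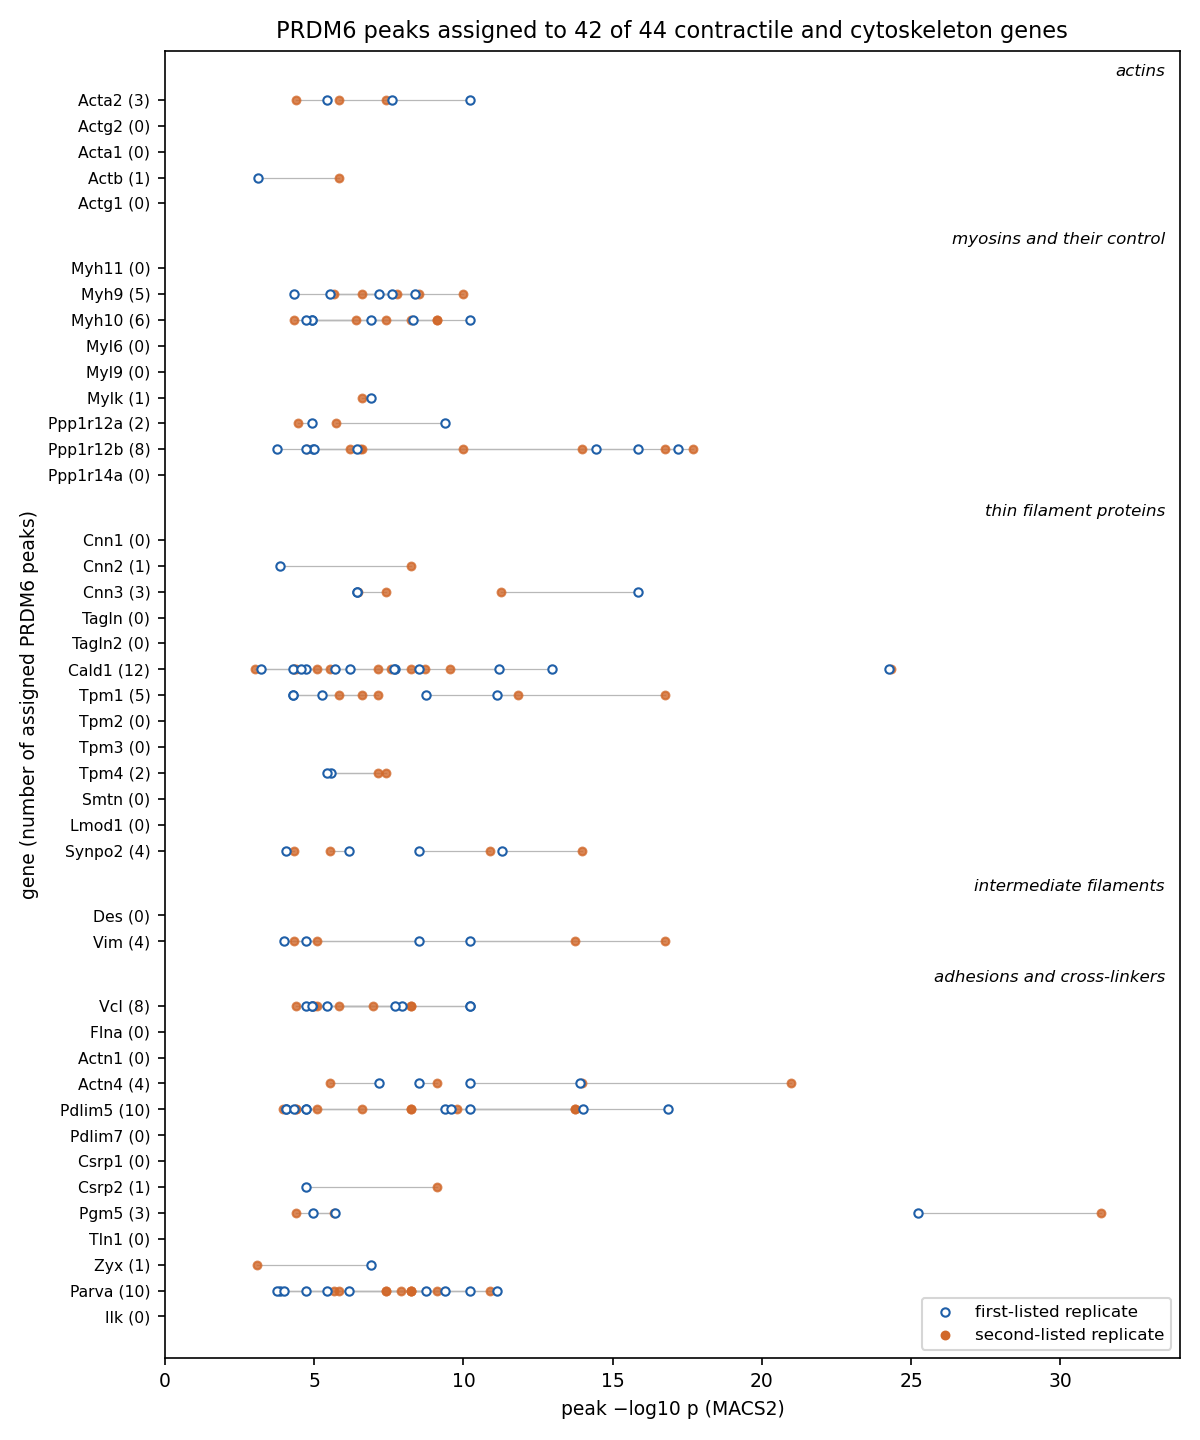
Strength of each assigned peak as −log10 p (horizontal axis) in the first-listed (open circles) and second-listed (filled circles) replicate for 42 of the 44 genes, grouped by role with the number of peaks in parentheses. A grey line joins both values of a peak. Pgm5 peak 2 and Cald1 peak 5 are the highest in both replicates, and 21 genes have no points.

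Of the 11 genes for myosins and their control, 7 had a peak and together they held 29 peaks. Myh11, which encodes the smooth muscle myosin heavy chain, had none although it is 96.8 kb long, and neither did the light chain genes Myl6 and Myl9 or Ppp1r14a, which encodes an inhibitor of the myosin phosphatase. The heavy chains of nonmuscle myosin, which all cells use for tension and division, did have peaks. Myh9 had 5, between a −log10 p of 4.32 and 7.17 for the matched peak, and Myh10 had 6, between 4.31 and 8.25. The strongest Myh10 peak (peak 5, intron 2, chr11:68710405-68710743) had values of 10.2 and 8.25 and heights of 18 and 15 fragments. In Myh9 the strongest (peak 2, intron 1, chr15:77820550-77820988) had values of 7.17 and 7.76.

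Mylk, which encodes myosin light chain kinase, is, at 257 kb, the longest of the 44 genes and yet had only 1 assigned peak (chr16:34926987-34927452). Its values were 6.92 and 6.61, and it lay 181878 bp past the start of the gene. The annotation classed it as promoter because it lay 2890 bp before the TSS of another Mylk transcript. An additional peak in intron 21 of Mylk (values of 5.42 and 6.61) was assigned to E130310I04Rik, whose TSS was nearer.

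The regulatory subunits of myosin phosphatase differed in how many peaks they had. Ppp1r12b, the subunit gene expressed most in striated muscle and heart, had 8 peaks and Ppp1r12a, the widely expressed one, had 2 peaks close to its start with matched values of 5.72 and 4.45. Of the 8 peaks of Ppp1r12b, 2 had a low global IDR. Peak 6, in intron 18 of 23 (chr1:134818218-134819463), had values of 17.2 and 16.7, a global IDR of 0.00794 and ranked 78th by strength among all peaks. Peak 7, over exon 2 (chr1:134901590-134902754), had values of 15.8 and 13.97 and a global IDR of 0.0182. Both were high in both replicates, unlike peak 8 in intron 1, which had 4.71 in the first-listed and 17.7 in the second-listed replicate. The other 5 peaks clustered in the distal part of the gene, 139076 to 156071 bp past its start, with matched values of 3.75 to 6.42.

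Of the 13 thin filament genes, 6 had a peak and together they held 27 peaks. The genes without a peak were Cnn1 (calponin 1, which inhibits the myosin ATPase), Tagln (transgelin or SM22α, an actin-binding protein), Smtn (smoothelin) and Lmod1 (leiomodin 1, which nucleates actin filaments), along with Tagln2, Tpm2 and Tpm3. Each of these 7 genes is 43.3 kb long or less. Cald1, which encodes caldesmon and is 177 kb long, had the most peaks of the 44 genes.

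The 12 peaks of Cald1 comprised 1 upstream, 4 classed as promoter and 7 in intron 1. Peak 5 stood out among them (intron 1 of 13, chr6:34609421-34610594): it had 24.3 in both replicates, heights of 32 and 31 fragments, a global IDR of 0.000417 and ranked 8th among all peaks. Its summits lay 11 bp apart, and 45.8% of the bases within 100 bp of the matched summit are repeats in the genome's masking, compared with a median of 11.9% over all peaks. The part of repeats in the strength of this peak was not tested. The other 11 peaks had matched values between 3.03 and 9.54. Peaks 2 and 11 lay over a TSS, the first at the start of the gene (6.21 and 4.30) and the other at the start of a shorter transcript 110657 bp downstream (7.69 and 8.25). The weakest match was peak 9, with 12.95 in the first-listed and 3.03 in the second-listed replicate.

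**Figure D3:**
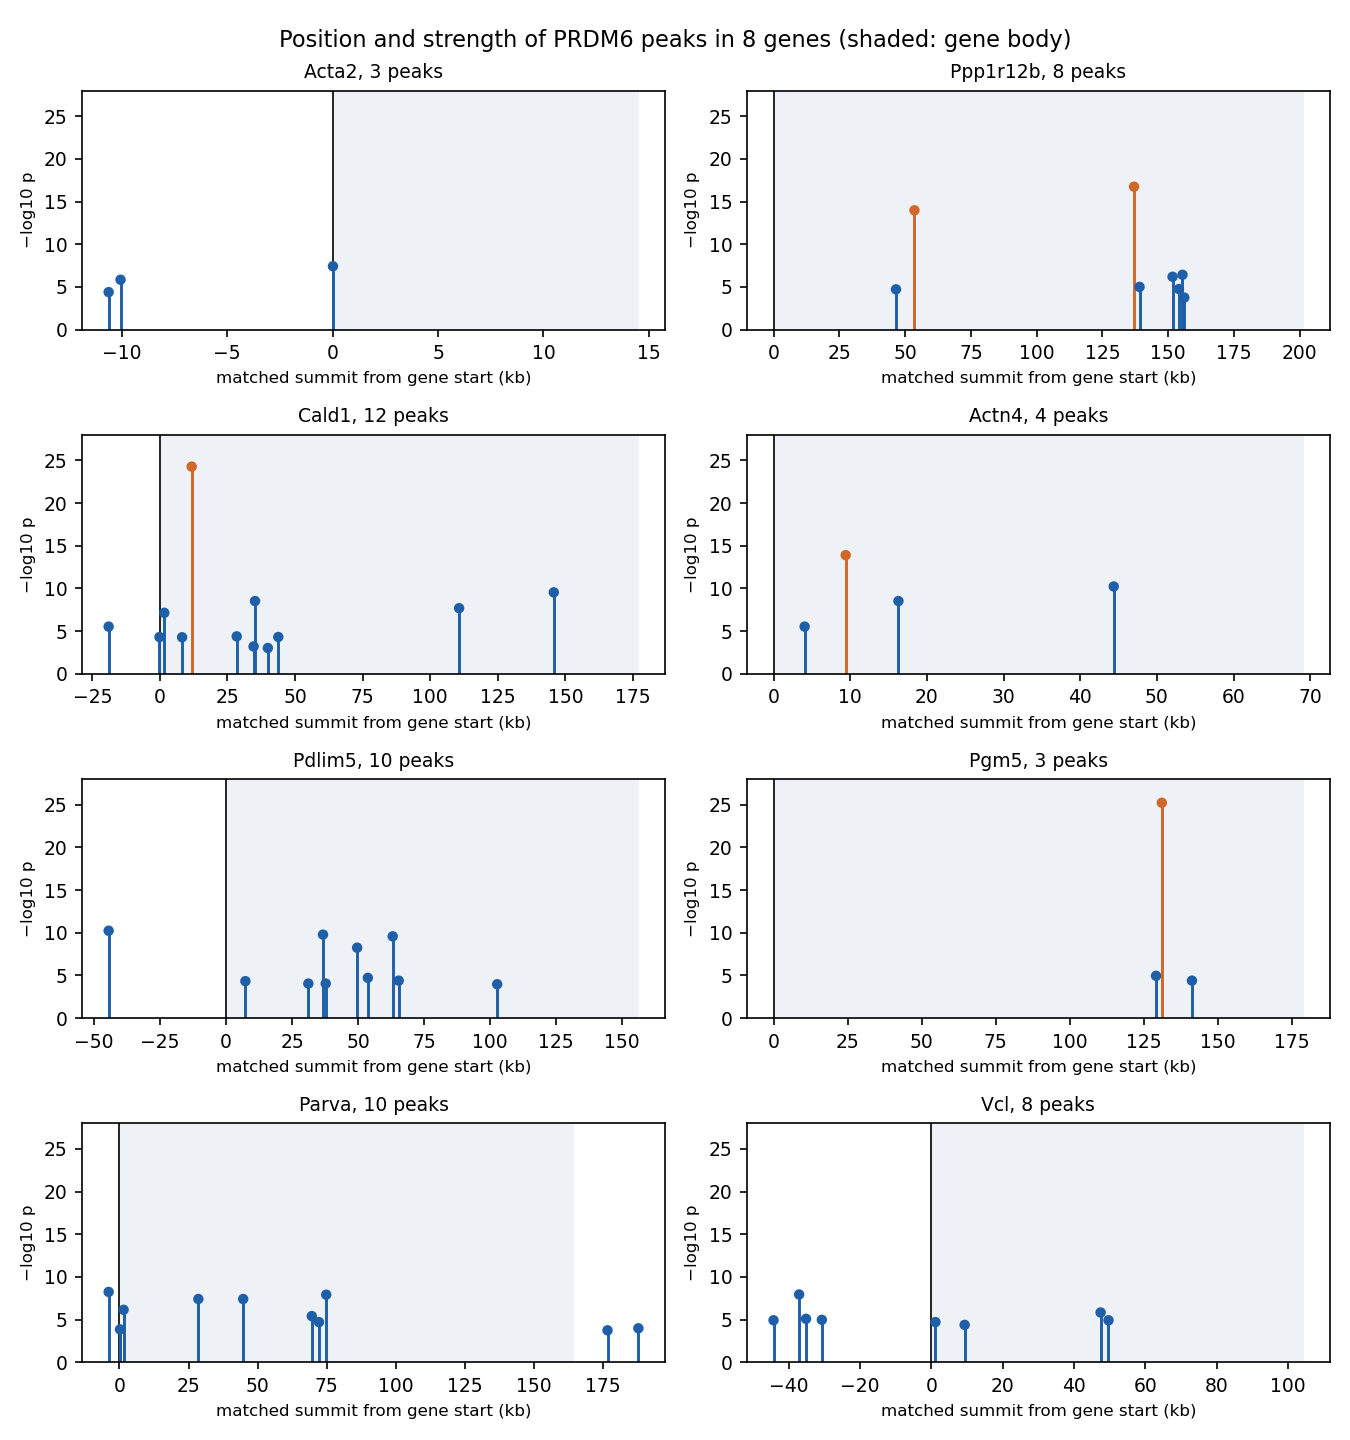
Position of the matched summit in kb from the gene start (horizontal axis) and matched −log10 p (vertical axis) of the peaks of Acta2, Ppp1r12b, Cald1, Actn4, Pdlim5, Pgm5, Parva and Vcl, where shading marks the gene body and orange marks a global IDR of at most 0.05. The strong peaks of Cald1, Pgm5, Ppp1r12b and Actn4 lie within the gene bodies and not at the gene start.

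Tropomyosins lie along the actin filament and regulate access to myosin. Tpm1 had 5 peaks and Tpm4 had 2. The strongest Tpm1 peaks lay on either side of the gene. Peak 1, downstream of the gene (chr9:67008401-67009026), had values of 11.1 and 11.8 and a height of 19 fragments in both replicates, while peak 5, 21815 bp upstream (chr9:67071221-67071989), had 8.75 and 16.7. The peak over the Tpm1 TSS had 5.27 and 5.84. Both Tpm4 peaks lay at the start of the gene and were weak, with matched values of 5.56 and 5.42.

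Among the calponins other than Cnn1, Cnn2 had 1 weak promoter peak (3.85 and 8.25) and Cnn3 had 3. Peak 1 of Cnn3 (chr3:121375387-121375975) lay 50522 bp upstream of the gene and was its strongest, with values of 15.8 and 11.3 and a global IDR of 0.0389. Synpo2, which encodes the actin-bundling protein synaptopodin 2, had 4 peaks, all intronic. Peak 2 (chr3:123104018-123104716) had values of 11.3 and 13.97 and a global IDR of 0.0562, the lowest above the limit of 0.05 among the 101 peaks.

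The intermediate filament genes differed. Des, which encodes desmin and is a marker of muscle cells, had no peak, and Vim, which encodes vimentin of mesenchymal cells, had 4 although it is only 8.90 kb long. All 4 were promoter peaks. Peak 2 (chr2:13573284-13574093) was the strongest peak over a TSS of the 44 genes, with values of 10.2 and 16.7, heights of 18 and 24 fragments and summits 1 bp apart. Peak 1 of Vim had 4.71 and 13.7, peak 3 had 8.52 and 4.30 and peak 4 had 3.99 and 5.10.

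Of the 13 genes for adhesions and actin cross-links, 7 had a peak and together they held 37 peaks, the most of any role. Flna (filamin A), Actn1 (α-actinin 1), Pdlim7, Csrp1, Tln1 (talin 1) and Ilk (integrin-linked kinase) had none. Pgm5, which encodes aciculin, a protein of adhesion plaques in muscle, held the strongest of the 101 peaks. Its peak 2 (intron 8 of 10, chr19:24730033-24732409) had 25.2 in the first-listed and 31.4 in the second-listed replicate, a global IDR of 0.000126 and ranked 7th among all peaks. It is 2377 bp wide, the widest of the 101 peaks. Peak 3 of Pgm5 lay next to it and was weak (4.95 and 5.67), as was peak 1 in intron 9 (5.69 and 4.39).

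Actn4 encodes α-actinin 4, which cross-links actin filaments, and had 4 peaks, while its paralog Actn1 had none although it is the longer gene (92.8 and 69.1 kb). Peak 3 of Actn4 (9414 bp past the gene start, chr7:28951933-28953561) had 13.9 and 13.97 and a global IDR of 0.0275, and peak 1, 44373 bp past the start, had 10.2 and 20.99. Vcl, which encodes vinculin, had 8 peaks, of which 4 were upstream by 30561 to 43891 bp, and none exceeded 7.95 as a matched value. Pdlim5, a PDZ and LIM protein of the Z-disc and stress fibers, had 10 peaks, 8 of them intronic. Its strongest were peak 10, 43932 bp upstream (10.2 and 13.7), peak 7 in intron 2 (14.01 and 9.78) and peak 3 in intron 3 (9.57 and 13.7). Parva, which encodes α-parvin and binds integrin-linked kinase at adhesions, had 10 peaks with matched values between 3.75 and 8.25. Csrp2 and Zyx (zyxin) each had 1, with values of 4.71 and 9.10 and of 6.92 and 3.09, and the Zyx peak lay in the 3′ untranslated region.

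The 21 genes without an assigned peak had no peak in the gene body either. The nearest peak to a TSS of theirs lay between 20059 bp (Csrp1) and 1209579 bp (Pdlim7) away, with a median of 194942 bp, and it was over 100 kb away for 13 of the 21. Only Csrp1 had a peak within 10 kb of the gene body, and that peak (6.15 and 6.61) was assigned to Phlda3. A gene without a peak in this list may still have had a peak in 1 of the replicates, since only matched peaks were listed.

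The peaks that were strong in both replicates are shown by sequence because they are the best supported of the 101. A global IDR no higher than 0.05 was seen at 6 of the 101 (5.94%, interval 2.75% to 12.4%), compared with 3.33% of all peaks, and no higher than 0.01 at 3 (2.97%), compared with 0.994%. The 6 peaks fell in 5 genes of the 44, where 1.60% of protein-coding genes had such a peak. Of the 5 genes, Cald1, Pgm5 and Ppp1r12b are over 100 kb long, and the part of length in this contrast was not tested. The lines give the matched summit with 100 bases on each side on the plus strand, with AP-1 and TEAD motifs in capitals.
Pgm5 peak 2, intron 8, chr19:24730674-24730874: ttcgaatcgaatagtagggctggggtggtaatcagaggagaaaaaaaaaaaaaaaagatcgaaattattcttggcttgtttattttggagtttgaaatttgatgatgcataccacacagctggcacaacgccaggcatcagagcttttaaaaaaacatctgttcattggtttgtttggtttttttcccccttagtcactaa
Cald1 peak 5, intron 1, chr6:34610154-34610354: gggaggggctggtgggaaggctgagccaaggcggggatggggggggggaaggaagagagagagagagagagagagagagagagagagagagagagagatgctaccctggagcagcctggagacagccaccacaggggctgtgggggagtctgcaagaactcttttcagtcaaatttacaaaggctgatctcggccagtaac
Ppp1r12b peak 6, intron 18, chr1:134818854-134819054: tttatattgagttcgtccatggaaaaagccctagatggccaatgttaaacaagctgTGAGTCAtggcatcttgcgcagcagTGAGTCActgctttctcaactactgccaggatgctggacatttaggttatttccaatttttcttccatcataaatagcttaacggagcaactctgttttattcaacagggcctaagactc
Ppp1r12b peak 7, over exon 2, chr1:134902295-134902495: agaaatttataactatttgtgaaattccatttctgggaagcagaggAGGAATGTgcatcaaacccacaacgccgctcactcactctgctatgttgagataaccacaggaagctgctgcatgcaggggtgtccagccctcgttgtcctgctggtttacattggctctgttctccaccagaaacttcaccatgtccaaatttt
Among the 4 windows, that of Cald1 holds a run of alternating g and a, and that of Pgm5 holds runs of a and t and no motif searched for. AP-1 motifs (TGACTCA or TGAGTCA) stand 2 times in the window of Ppp1r12b peak 6, and a TEAD motif stands in that of peak 7. The windows of the remaining reproducible peaks, Actn4 peak 3 and Cnn3 peak 1, held none of the AP-1, TEAD and CArG motifs. Repeats in the genome's masking made up 45.8% of the window of Cald1, 33.8% of Pgm5, 26.9% of Cnn3 and 18.9% of Actn4. For Ppp1r12b they made up 10.9% at peak 7 and 0% at peak 6, where the median over all peaks was 11.9%.

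Over all 101 peaks, AP-1 motifs were at 11 summits (10.9%, interval 6.19% to 18.5%), compared with 14.3% of all summits, and TEAD motifs at 4 (3.96%, interval 1.55% to 9.74%), compared with 7.45%. A summit here means the summit that the list gives for the matched peak and 100 bases on each side, read on both strands. TTTCAT or TTTCCT was at 38 summits (37.6%), compared with 43.1%. Windows of the same size centred 1000 bp to either side held TTTCAT or TTTCCT in 33.2% on average, compared with 39.4% for all peaks. They held AP-1 motifs in 3.47%, compared with 3.86%, and TEAD motifs in 2.48%, compared with 3.27%. For AP-1 and TEAD the interval at the summit contains the share of all peaks. Within 50 bp of the summit no peak held a TEAD motif (interval 0% to 3.66%), compared with 4.09% of all peaks, and 14.9% held TTTCAT or TTTCCT (interval 9.21% to 23.1%), compared with 23.7%. For TTTCAT or TTTCCT the order turned in wider windows, with 77.2% compared with 75.9% within 250 bp and 79.2% compared with 76.7% over whole peaks.

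CArG boxes, which are CC and GG around 6 bases of A or T, were at 4 summits (3.96%, interval 1.55% to 9.74%), compared with 1.41% of all summits, and with 250 bp on each side they were at 12 (11.9%), compared with 3.48%. The 4 boxes were in peaks of low rank, with global IDR values of 0.513 to 0.759, and are shown because they lie closest to a summit of the list.
Pgm5 peak 3, intron 8, chr19:24732643-24732692: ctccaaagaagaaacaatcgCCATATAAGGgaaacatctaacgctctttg
Myh9 peak 1, intron 3, chr15:77798916-77798965: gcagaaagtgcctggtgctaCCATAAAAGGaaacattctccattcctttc
Cald1 peak 10, intron 1, chr6:34642366-34642415: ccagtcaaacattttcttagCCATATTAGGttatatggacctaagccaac
Ppp1r12b peak 3, within the gene, chr1:134801914-134801963: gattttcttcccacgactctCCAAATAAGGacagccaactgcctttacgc
The boxes of Pgm5, Myh9 and Cald1 lay 51, 15 and 29 bp from the second-listed summit and 42, 102 and 158 bp from the first-listed summit. That of Ppp1r12b lay 329 and 224 bp away, because the list's own summit of this peak was not between those of the replicates. Of the 17 boxes, 13 were inside the peak of the first-listed replicate, 16 inside that of the second-listed replicate and 12 inside both. The 101 peaks were somewhat wider than all peaks (median 668 and 600 bp), and the part of width in the share of whole peaks with a box was not tested.

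CArG boxes near gene starts were also counted without regard to peaks. The promoter windows of RefSeq, from 250 bp before to 50 bp after a gene start, were matched for 37 of the 44 genes and not for 7 others, among them Actg2, Myh11, Tagln, Csrp2 and Parva. A CArG box of the exact form given above stood in the window of 6 of the 37 genes (16.2%), compared with 1.81% of all genes with a window. Sites with any other base in the core were not searched for, so a window without a match may still hold one. The 6 genes with a match were Myl9, Acta1, Cnn2, Myl6, Actg1 and Vcl. None of these 6 windows was overlapped by a peak. This covers the matched windows only, and in Cald1 a box 246 bp before the gene start of GENCODE lay inside peak 2 of both replicates. A peak overlapped the window of 7 of the 37 genes (18.9%), namely Acta2, Cald1, Ppp1r12a, Ppp1r12b, Tpm1, Tpm4 and Vim, where 3.09% of all genes had such a peak.

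**Figure D4:**
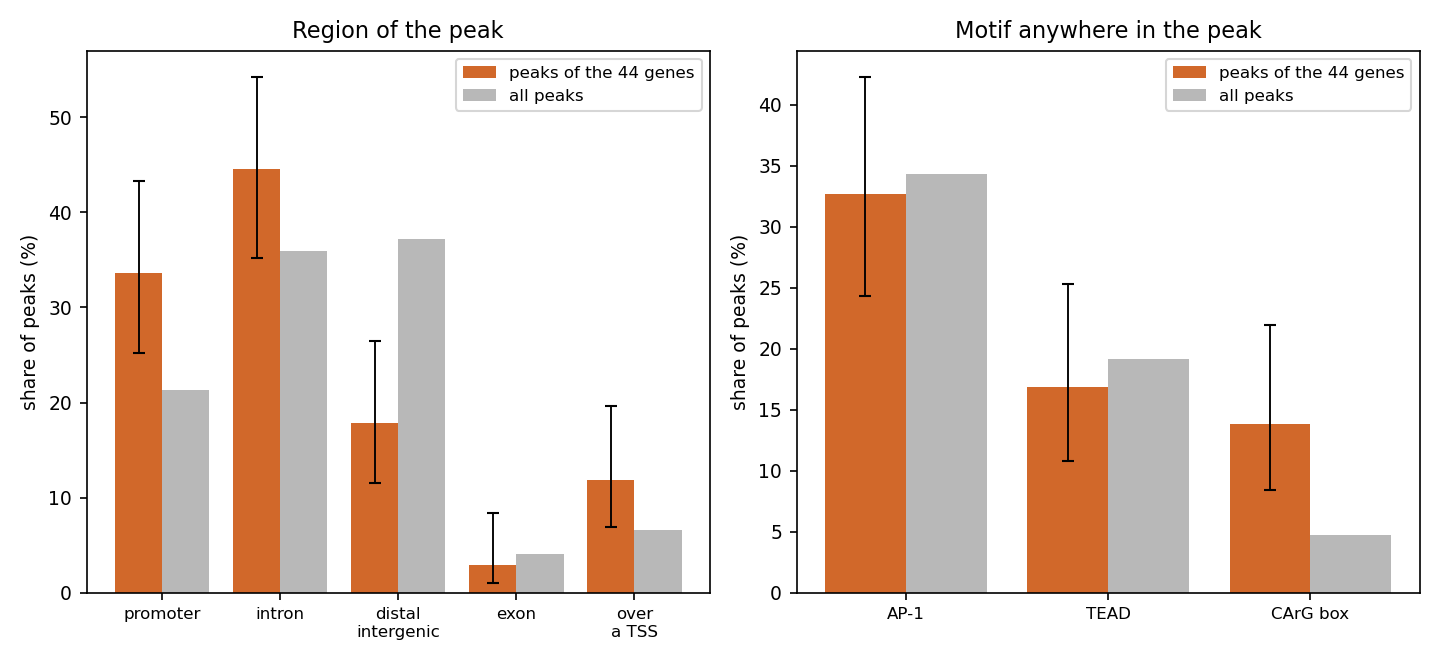
Share of peaks in percent (vertical axes) by region class (left) and with a motif anywhere in the peak (right), for the 101 peaks of the 44 genes in orange with 95% Wilson intervals as error bars and for all 13977 peaks in grey. The orange bar is above the grey bar for promoters, introns, TSS overlap and CArG boxes and below it for distal intergenic peaks.

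By region, 34 of the 101 peaks (33.7%) were classed as promoter, within 3 kb of a TSS, compared with 21.3% of all peaks. Introns held 45 (44.6%, interval 35.2% to 54.3%), compared with 35.9%, and without Cald1, Pdlim5 and Parva the intronic share was 34.8%, below that of all peaks. Distal intergenic sequence held 18 (17.8%), compared with 37.2%. The remaining peaks were 3 in exons and 1 in a 3′ untranslated region. Of the 45 intronic peaks, 20 (44.4%, interval 30.9% to 58.8%) were in intron 1. The share of all intronic peaks, 35.2%, is inside this interval. Cald1 held 7 of the 20. Synpo2 held 4, in intron 1 of transcripts with 1 or 4 introns, 97552 to 132525 bp past the gene start. A TSS was overlapped by 12 peaks (11.9%), compared with 6.64% of all peaks, in 10 genes: Acta2, Actb, Cald1, Cnn3, Parva, Ppp1r12a, Ppp1r12b, Tpm1, Tpm4 and Vim. The matched values of the peaks over a TSS ran from 3.10 to 10.2. Their median of 5.64 was close to the 5.42 of the 101 peaks and the 5.42 of all peaks over a TSS. All 12 had a global IDR above 0.05, while 25 of the 928 peaks over a TSS in the whole list did not. No peak of the 44 genes was over 100 kb from its TSS, compared with 19.3% of all peaks. Since a peak goes to the nearest TSS, that share depends on how far apart the neighbouring genes lie, and this was not tested.

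The strength of the 101 peaks was like that of the list as a whole. The median matched −log10 p was 5.42, compared with 5.53 over all peaks, and the quartiles were 4.39 and 7.42, compared with 4.39 and 6.92. Across the 101 peaks the replicates' values had a Spearman correlation of 0.320, compared with 0.263 over all 13977 peaks, given as a description only, since all peaks of a replicate share its library. The height of the peak in fragments could be read back from the p-value for 51 peaks in the first-listed and 60 in the second-listed replicate, and its median over those peaks was 15 in both, compared with 14 and 13 over all peaks with a height, over a background mean of 2.61 and 2.39 fragments in the first-listed and second-listed replicate.

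The replicates did not weigh these genes alike. In the first-listed replicate the median of the 101 peaks was 6.21, below the 6.92 of all peaks, while the second-listed replicate gave 7.42, above the 6.61 of all peaks. The second-listed value was the higher one at 60 of the 101 peaks (59.4%, interval 49.7% to 68.5%), compared with 47.9% of all peaks. The difference was largest at promoters, where the second-listed value was higher at 24 of 34 peaks (70.6%), compared with 53.2% of all promoter peaks. In introns it was higher at 25 of 45 (55.6%), compared with 47.0%, and in distal intergenic sequence at 9 of 18, compared with 45.7%. With 2 replicates and no value of their depth, the part of the libraries in this difference cannot be told apart from that of the cells.

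**Figure D5:**
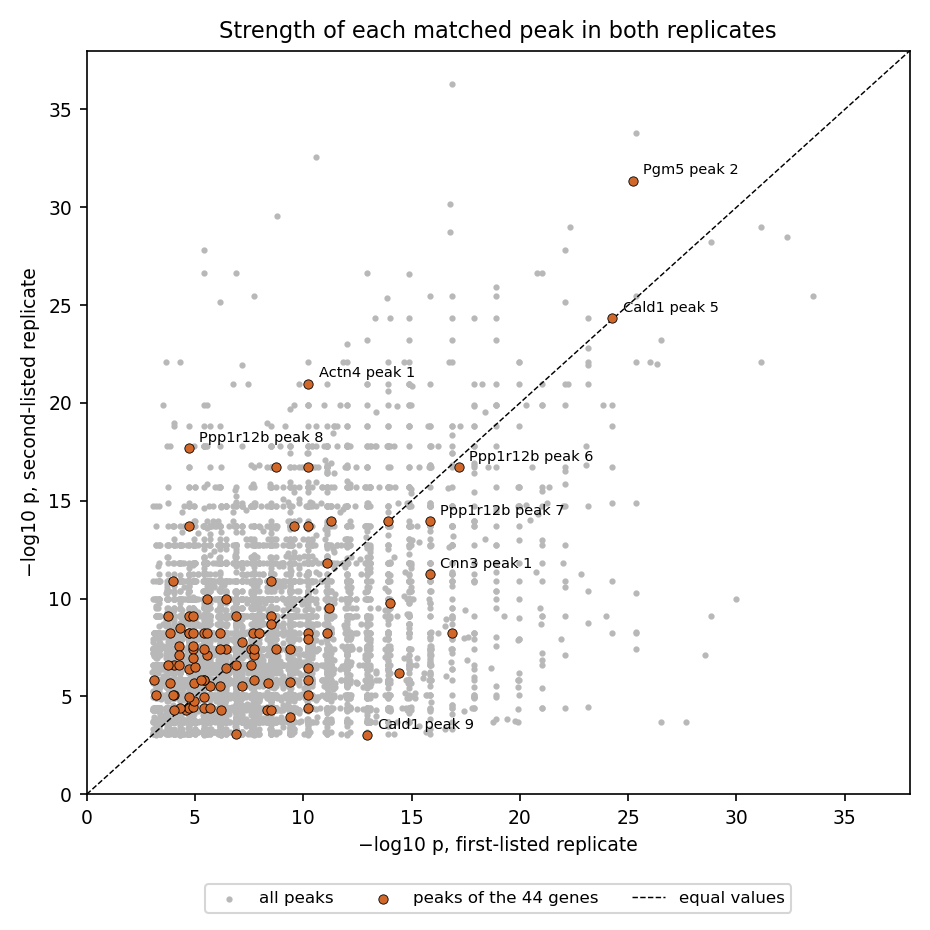
Peak strength as −log10 p in the first-listed (horizontal axis) and second-listed (vertical axis) replicate for all 13977 peaks in grey and the 101 peaks of the 44 genes in orange, with a dashed line of equal values. Pgm5 peak 2 and Cald1 peak 5 lie among the highest peaks of the list in both replicates, and most of the other orange points lie below 10 on both axes.

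Genes related to the 44 by function were counted in the same way. Of all protein-coding genes, 19.9% had an assigned peak, with 13.9% for genes of 10 to 30 kb and 28.5% for genes of 30 to 100 kb. Of 40 other actin regulators, such as profilins, cofilins, formins and gelsolin, 24 had an assigned peak (60.0%), and they held 52 peaks, the most in Pkn2, Ezr and Arhgef12 with 5 each. Of 32 other genes of adhesions and filament anchorage, 14 had a peak (43.8%), led by Sgcd with 11, Sorbs2 with 10 and Tns3 and Palld with 9 each. Of 25 other regulators of myosin and contraction, 12 had a peak, led by Camk2d with 10, Itpr1 with 9 and Prkg1 with 8. Only 2 peaks of these 3 lists, 1 at Sgcd and 1 at Atp2b4, had a global IDR this low (0.05 or less). Of 36 striated muscle counterparts, such as cardiac actin and cardiac and skeletal myosins and troponins, 4 had a peak (11.1%), namely Neb, Nebl, Lmod2 and Myoz2. Median gene lengths differed between these lists, from 19.7 kb for the striated counterparts to 59.2 kb for the regulators of contraction, and the part of length in these shares was not tested.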

How the data were processed

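The authors aligned paired reads to mm10 with BWA, called peaks with MACS2 for each immunoprecipitation over its matching input (p below 0.001), matched the replicates by IDR and annotated each matched peak to the nearest TSS. The deposited −log10 p-values are those of MACS2, 1 per replicate and the smaller for the matched peak, and the deposited score is a scaled global IDR whose −log10 is also given. Read depth of the libraries is not given in the sources used here. The labels do not say which replicate is listed first. The study's text places both immunoprecipitations in the same sample at one point and speaks of independent replicates at another, so whether the spread between them is technical is not known.

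Peaks were taken by gene symbol. Gene bodies and exons came from GENCODE M21 basic, sequence from GRCm38 (RefSeq) and promoter windows from the RefSeq table. Peak heights were read back from Poisson tails at a tolerance of 0.0002, after the search and the motif search were tested on simulated data. The summit of a matched peak in the list lay outside the replicates' summits in 7 of the 101 peaks. Scripts ran in Python 3.11.15 with pandas 2.3.3, NumPy 2.4.6, SciPy 1.17.1, pysam 0.24.0 and matplotlib 3.10.9. No test was run, since the list holds 1 set of matched peaks and no group to compare. Wilson intervals cover counting error over peaks only. The genes, lists, motifs and alternatives were chosen with earlier results of these data known. Values of 2 genes and 1 sequence element are not reported here, although all 44 genes enter the counts. The genes described at most length were those with a peak over a TSS, with a global IDR of at most 0.05 or with the most peaks, and the markers of differentiated SMCs.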

Additional observations from a re-analysis of the deposited data

How the results depend on the processing

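The number of genes with a peak (23) fell to 5 with a global IDR limit of 0.05 and to 3 with 0.01, and the number of peaks (101) to 6 and 3. It stayed within 1.5 times under the other limits: 23 genes within 100 kb of the TSS, 21 within 10 kb, 19 within 3 kb, 21 by overlap with the gene body and 24 within 10 kb of it. The median strength (5.42) was 6.21 in the first-listed and 7.42 in the second-listed replicate alone. At a global IDR of at most 0.05, 16.7% of peaks were at promoters (1 of 6). Leaving out Cald1, Pdlim5 and Parva, an alternative chosen after seeing the data, gave 34.8% intronic peaks, below the 35.9% of all peaks, and AP-1 at 7, TEAD at 2 and TTTCAT or TTTCCT at 25 summits.

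Motif counts moved with the window. Within 50 bp they were 5 for AP-1 (4.95%, all peaks 7.61%), 0 for TEAD (all peaks 4.09%), 2 for CArG (1.98%, all peaks 0.687%) and 15 for TTTCAT or TTTCCT (14.9%, all peaks 23.7%), within 250 bp 26, 12, 12 and 78, and over whole peaks 33, 17, 14 and 80. At the first-listed and second-listed summits they were 7 and 11 for AP-1, 5 and 5 for TEAD, 3 and 4 for CArG, and 39 and 33 for TTTCAT or TTTCCT. Of 55 alternatives, 32 stayed close to the reported value: counts and heights within 1.5 times, the median strength within the replicates' SD and region shares within the Wilson interval. The heights that could be recovered, for 51 and 60 of the 101 peaks, were 10 to 37 fragments, which limits the precision of those values. No paired analysis was possible because no result comes from a test and the list holds no values of the Input group.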
